A study of Homo sapiens with 48 samples.

Results

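The genes described here are 10 enzymes that build nucleotides from small precursors: IMPDH1, IMPDH2, PPAT, GART, PAICS, ATIC and GMPS of purine synthesis, and CAD, DHODH and UMPS of pyrimidine synthesis. They were taken by name and were 10 of the 19923 gene names in the count files. The study sequenced poly(A)-selected RNA of Kelly and NGP, established neuroblastoma cell lines, both MYCN-amplified and of wild-type genotype per the labels. Each line was kept for 3 or 6 days in DMSO, the solvent control, or in 8 µM STM2457, an inhibitor of METTL3, the enzyme that writes N6-methyladenosine (m6A) into mRNA. RNA was taken 0, 3 or 6 h after the addition of actinomycin D, a transcription blocker, at 10 µg/ml. All groups grew in RPMI1640, and RNA of the 0 h groups stands for cells before the transcription block. The design gave 24 groups of 2 libraries, 48 in all. The labels do not say that the 2 libraries of a group came from separate cultures, so p-values measure only the spread between these libraries, which may be technical.

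De novo purine synthesis assembles the purine ring on a ribose phosphate and ends at inosine monophosphate, from which separate branches lead to AMP and GMP. PPAT catalyses the committed step, GART and PAICS carry several middle steps, and ATIC closes the ring. IMPDH1 and IMPDH2 are the isoenzymes of the rate-limiting step toward GMP, which GMPS completes. In pyrimidine synthesis CAD joins the first activities in one protein, DHODH oxidises dihydroorotate in mitochondria, and UMPS makes uridine monophosphate. Several of these genes are known targets of MYC family transcription factors, and dividing tumour cells rely on the pathway for RNA and DNA synthesis.

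PPAT and PAICS lie head to head on chromosome 4 of GRCh38, at chr4:56393362-56435615 on the minus strand and chr4:56435741-56464579 on the plus strand, with 125 bases between their exons. IMPDH2 lies at chr3:49024325-49029408 on the minus strand, ATIC at chr2:215311956-215349773 and CAD at chr2:27217369-27243943 on the plus strand. UMPS at chr3:124730433-124749273, GMPS at chr3:155870650-155944020 and DHODH at chr16:72008588-72027664 are on the plus strand. IMPDH1 at chr7:128392277-128410252 and GART at chr21:33503931-33543491 are on the minus strand. No member shared exon bases with another gene of the count annotation.

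The promoter table of RefSeq (GRCh38.p14, 250 bases before to 50 after the start) held 9 members, all but IMPDH2. For each gene the window at the start of its MANE Select transcript was read. CACGTG, the E-box that MYC family proteins bind, was searched as letters. It reads the same on both strands. It stood in the windows of PPAT, ATIC and DHODH, 3 of the 9, against 8.83% of 14874 such windows of the same length. The table lists 3 windows for PAICS, and one of the other two holds the same box as PPAT, which lies past the PAICS start in the files. Over any listed window it was 4 of 9 members, against 11% of 15085 genes. A match describes the letters and is not evidence of a bound site. Each match is printed with its flanks, 5′ to 3′ on the gene's strand, because these are the members that carry the box. CACGTG is in capitals, and positions count the box's first base from the start.
PPAT, base -182, chr4:56435780-56435809: aacggagatttcCACGTGcagcaaatacag
ATIC, base -46, chr2:215312001-215312030: gggccggcgggcCACGTGataagcccggaa
ATIC, base 29, chr2:215312076-215312105: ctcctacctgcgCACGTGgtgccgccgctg
DHODH, base -159, chr16:72008573-72008602: gccgctactgcgCACGTGcacccaaccaga

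Libraries held 11139550 to 21942238 fragments in genes, and ERCC spike-in RNAs made up 0.265% to 0.671%. No 2 libraries held identical values. All 10 members passed the low-count filter in both lines, with counts from 169 (DHODH) to 11663 (PAICS) in a library. Of 9 neuroblastoma markers, only TH was near 0, in NGP (0.0526 to 3.03 CPM, a library's counts divided by its total in genes after TMM scaling and put on a per-million basis), against 185 to 691 CPM in Kelly. MYCN had 402 to 5880 CPM in Kelly and 559 to 8770 CPM in NGP over all libraries. Of 8 markers of other cells, PTPRC, KRT5, ALB, PECAM1 and EPCAM were near 0. The fibroblast marker COL1A1 reached 49.6 CPM in Kelly and 209 CPM in NGP. PDGFRB, a pericyte and fibroblast marker, had 35.4 to 103 CPM in Kelly and 56 to 84.1 CPM in NGP. CD68 reached 11 CPM in Kelly and 8.62 CPM in NGP. Summed over the 8 markers, Kelly had 42.5 to 158 CPM in DMSO and 54.2 to 111 in STM2457, and NGP had 126 to 294 and 117 to 180. In bulk RNA, fewer cells of a type and less RNA per cell cannot be told apart.

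Levels of different genes were compared as CPM per kilobase of exon (CPM/kb) in DMSO at 0 h. PAICS and IMPDH2 were the most abundant members in Kelly, and with ATIC and CAD they formed the upper group in NGP. DHODH was lowest in each line and duration. In Kelly at 3 days the mean levels in CPM/kb ran from PAICS (55.8 ± 4.88, SD, n = 2) through IMPDH2 (45.8), ATIC (32.8), IMPDH1 (31.4), CAD (28.5), GMPS (24.7), GART (22), PPAT (20.9) and UMPS (15.1) to DHODH (4.43 ± 0.17). ATIC overlapped IMPDH1, IMPDH1 overlapped CAD, and GART overlapped PPAT; the libraries of the other neighbours did not overlap. In Kelly at 6 days IMPDH2 (55.4 CPM/kb) stood above PAICS (43.9 CPM/kb), and GMPS, GART and IMPDH1 (22.1, 21.9 and 21.4 CPM/kb) overlapped in turn.

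In NGP at 3 days 4 members lay close together, PAICS at 52.4, IMPDH2 at 51.1, ATIC at 48.2 and CAD at 45.5 CPM/kb, of which PAICS and IMPDH2 overlapped. The next gene, GART, was at 18.4 CPM/kb and overlapped PPAT at 18.3. GMPS (15.8), IMPDH1 (12.2), UMPS (8.98) and DHODH (3.78 CPM/kb) followed without overlap. At 6 days IMPDH2 led in NGP with 69 ± 2.12 CPM/kb (SD, n = 2), above ATIC (47), CAD (45.5) and PAICS (42.1). The PAICS libraries (37.5 to 46.7) overlapped those of CAD and those of ATIC (46.6 to 47.5 CPM/kb). GART (17.9) and GMPS (15.8 CPM/kb) also overlapped there. The order depends on the length used. With the length of the MANE Select transcript in place of the files' merged exons, IMPDH2 led in Kelly at both durations (76.9 and 93 CPM/kb), ATIC led in NGP at 3 days (92.6), and DHODH remained lowest.

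**Figure D1:**
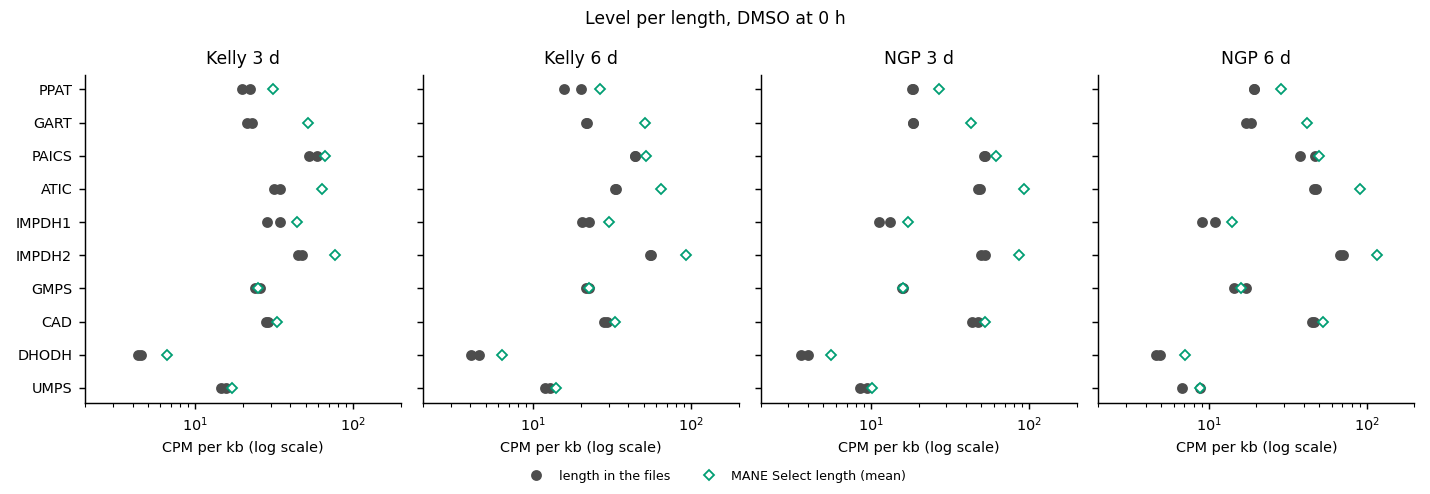
Level of each member in DMSO at 0 h, in CPM per kilobase on a log axis. Dots are libraries scaled by the exon length in the files and open diamonds are means scaled by the MANE Select transcript length; DHODH is lowest in all 4 panels.

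The lines differed in the levels of most members. ATIC and CAD were higher in NGP than in Kelly in DMSO at 0 h, and IMPDH1, GMPS, UMPS and GART were lower, though scaling to ERCC turned the sign of GART at 3 days. These 6 members passed at 3 days, where 30.0% of 17343 genes did, and 7 at 6 days, where 31.6% did. The members' share is above that of all genes in both, in a comparison where many genes differed. A gene is called here when its Benjamini-Hochberg adjusted p over all genes tested, from the quasi-likelihood test of edgeR, was under 0.05. Changes are log2 differences ± SE. Between lines they come from a fit of all 48 libraries, while the CPM given for single libraries are scaled within each line.

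IMPDH1 had 106 and 130 CPM in Kelly and 41.3 and 47.5 CPM in NGP at 3 days, and 83.3 and 75.2 against 32.5 and 39.6 CPM at 6 days. Every NGP library was below every Kelly library. Its log2 difference, NGP minus Kelly, was -1.37 ± 0.15 at 3 days (adjusted p = 9.36e-12, edgeR) and -1.09 ± 0.15 at 6 days. CAD had 249 and 244 CPM in Kelly and 366 and 399 in NGP at 3 days, again without overlap. Its difference was 0.68 ± 0.088 and 0.67 ± 0.087 at the 2 durations. ATIC differed by 0.56 and 0.50, GMPS by -0.65 and -0.49, and UMPS by -0.75 and -0.65 (SE 0.11 to 0.14). GART differed by -0.26 and -0.28, and IMPDH2 was called at 6 days (0.32 ± 0.097). These 3 calls of GART and IMPDH2 ended when 1 library was left out. For GART they ended without Kelly replicate 2 or either NGP replicate at 3 days (-0.33 to -0.21 over the 4 fits) and without Kelly replicate 2 or NGP replicate 1 at 6 days (-0.35 to -0.23). For IMPDH2 they ended without Kelly replicate 1 or NGP replicate 2 (0.28 to 0.34). On the ERCC scale, where the median of all genes was 0.27 at 3 days, GMPS (-0.24), UMPS (-0.34) and GART (0.15) were not called, and IMPDH1 (-0.96), ATIC (0.97) and CAD (1.08) were. IMPDH2 (0.57) and PAICS (0.32) were also called higher there. The median was -0.13 at 6 days on that scale, and all the genes called on the TMM scale were called except IMPDH2 (0.17), with PAICS also called lower (-0.20). PPAT, PAICS and DHODH were called at neither duration on the TMM scale. Markers moved with the line too: COL1A1 was called higher in NGP by 3.93 and 1.10, and PDGFRB by 0.78 at 3 days. MYCN differed by 0.0026 at 3 days and was called higher in NGP at 6 days (0.80 ± 0.065). DBH (-3.54 and -3.14), CHGA (-2.88 and -3.02) and TH (-9.07 and -10.03) were called lower in NGP, and GATA3 higher (0.62 and 0.42). HAND2 was called higher at 3 days (0.49) and lower at 6 days (-0.40), and PHOX2A lower at 6 days (-0.89). The part of MYCN, of line identity or of fibroblast-type RNA in the members' differences was not tested.

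Between 3 and 6 days in DMSO, PAICS fell in both lines on the TMM scale, and on the ERCC scale in NGP only. The same comparison called IMPDH1 lower in Kelly and IMPDH2 higher in NGP. This was 2 of 10 members in each line, beside 8.52% of genes in Kelly and 12.1% in NGP. PAICS had 456 and 404 CPM at 3 days and 336 and 334 CPM at 6 days in Kelly, and 396 and 388 against 344 and 278 CPM in NGP, with no overlap in either. Its change was -0.36 ± 0.073 in Kelly and -0.33 ± 0.074 in NGP (edgeR adjusted p = 5.94e-05 and 0.000441). IMPDH1 in Kelly changed by -0.57 ± 0.12 and IMPDH2 in NGP by 0.42 ± 0.094. The IMPDH1 call ended without Kelly 3-day replicate 2, and the NGP PAICS call without 6-day replicate 2 (lowest and highest over the left-out fits -0.71 to -0.42 and -0.49 to -0.19). Against ERCC the Kelly changes of PAICS (0.02, a turned sign) and IMPDH1 (-0.19) were not called, with a median of all genes of 0.35. In NGP on that scale PAICS was called (-0.50) and IMPDH2 was not (0.24). Among the members not called, UMPS had -0.31, IMPDH2 0.26 and PPAT -0.24 in Kelly, and DHODH had 0.32 and IMPDH1 -0.30 in NGP.

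Markers moved between these DMSO groups as well. In Kelly COL1A1 rose by 3.10 ± 0.34 and PDGFRB by 1.10 ± 0.16, 2 of 7 other-cell markers tested, and the sum of the markers went from 42.5 to 49.1 CPM at 3 days to 127 to 130 CPM at 6 days. In NGP none was called, with 126 to 141 and 148 to 170 CPM. MYCN was called lower in Kelly (-0.37) and higher in NGP (0.43). Of the other neuroblastoma markers, HAND2 (0.41) was called higher and DBH (-0.32) and CHGA (-0.13) lower in Kelly. In NGP PHOX2A (-0.78), HAND2 (-0.47), GATA3 (-0.27) and CHGA (-0.27) were called lower. The part of these in the members' changes was not tested.

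**Figure D2:**
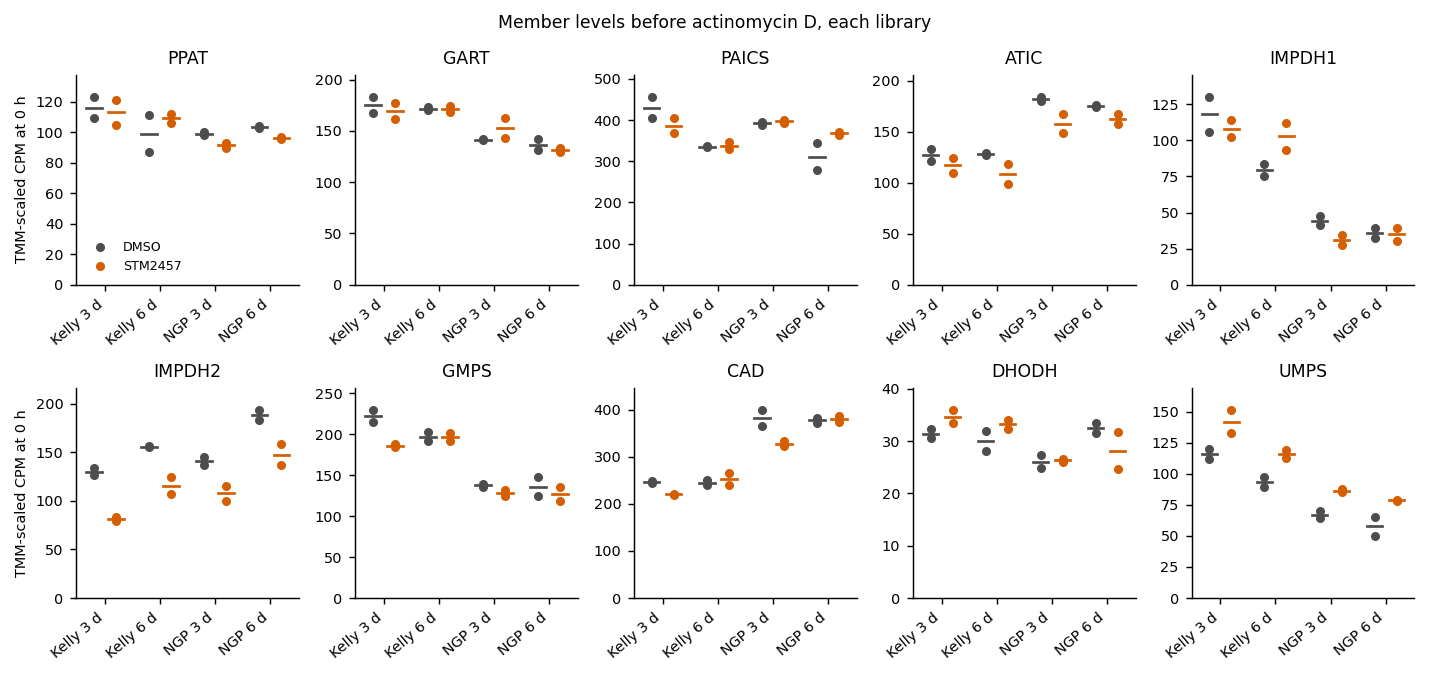
Level of each member at 0 h in CPM (TMM-scaled), one panel per gene, with grey dots for DMSO libraries, orange dots for STM2457 libraries and lines for the means of 2. IMPDH2 is lower in STM2457 in each of the 4 pairs of groups and UMPS is higher, and the fitted changes keep these signs on the ERCC scale.

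IMPDH2 was lower after STM2457 in both lines at both durations, to between 0.624 and 0.786 of the DMSO level. It was the only member called in 3 of the 4 comparisons at 0 h. UMPS lay higher in STM2457 in all 4 and was called in NGP at 6 days, together with PAICS. The other 7 members were called in none. The counts, given first for Kelly at 3 and at 6 days and then for NGP, were 1, 1, 1 and 3 of 10, beside 1.68%, 3.97%, 3.70% and 7.99% of all genes. At an unadjusted p under 0.05 they were 4, 4, 5 and 3. The share of all genes at that cutoff was not counted, so these numbers cannot be set against it. The members' median change was -0.12, 0.03, -0.11 and -0.08, and that of all genes 0 to 0.02.

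IMPDH2, the isoenzyme that proliferating cells express more, had 126 and 134 CPM in DMSO and 83.3 and 79.3 CPM in STM2457 in Kelly at 3 days. At 6 days the Kelly values were 155 and 156 against 107 and 124 CPM. In NGP they were 137 and 145 against 115 and 100 CPM at 3 days, and 183 and 193 against 137 and 158 CPM at 6 days. In each pair of groups both STM2457 libraries were below both DMSO libraries. The log2 change was -0.68 ± 0.11 in Kelly at 3 days (edgeR adjusted p = 3.94e-06), and this call held with each library left out (-0.72 to -0.63). In Kelly at 6 days it was -0.43 ± 0.11 (0.741-fold, adjusted p = 0.00679). In NGP it was -0.39 ± 0.095 (adjusted p = 0.0056) at 3 days and -0.35 ± 0.093 (adjusted p = 0.00769) at 6 days.

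These 3 smaller changes kept their sign but not their call when a library was left out (edgeR). In Kelly at 6 days the adjusted p was 0.0606 without DMSO replicate 1, 0.0822 without DMSO replicate 2 and 0.298 without STM2457 replicate 1, with changes from -0.57 to -0.35 over the 4 fits. In NGP at 3 days it was 0.137 without DMSO replicate 2 and 0.272 without STM2457 replicate 2 (-0.49 to -0.29). In NGP at 6 days it was 0.0998 without DMSO replicate 2 and 0.288 without STM2457 replicate 1 (-0.45 to -0.25). Against ERCC the change was -0.28, -0.69, -0.28 and -0.39 in the same order, beside a median of all genes of 0.38, -0.21, 0.098 and -0.017. On that scale the 3-day calls ended (adjusted p = 0.0672 in Kelly and 0.109 in NGP), and the 6-day calls held. The STM2457 effect on IMPDH2 differed between the lines by 0.29 ± 0.14 at 3 days (adjusted p = 1, edgeR), which did not pass.

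IMPDH1, the other isoenzyme, had no shared direction. In Kelly at 6 days DMSO had 83.3 and 75.2 CPM and STM2457 112 and 93.5 CPM, a change of 0.37 ± 0.12 (edgeR adjusted p = 0.0539). In NGP at 3 days DMSO had 41.3 and 47.5 CPM and STM2457 27.3 and 34.7 CPM, a change of -0.52 ± 0.18 (adjusted p = 0.101). The groups did not overlap in these 2 comparisons and overlapped in the other two (-0.13 and -0.04). GMPS, the next enzyme of the branch, changed by -0.26 ± 0.10 in Kelly at 3 days and by -0.0045, -0.10 and -0.10 in the other three, with no call.

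UMPS had 120 and 112 CPM in DMSO and 151 and 133 CPM in STM2457 in Kelly at 3 days, and 97.3 and 89.5 against 113 and 119 CPM at 6 days. In NGP it had 64.1 and 70.1 against 87.4 and 85.5 CPM at 3 days, and 50 and 65.5 against 78.3 and 78.9 CPM at 6 days. The STM2457 libraries were above the DMSO libraries in each pair of groups. The log2 changes were 0.29, 0.31, 0.36 and 0.45 (SE 0.13 to 0.15), with edgeR adjusted p = 0.502, 0.255, 0.21 and 0.0499. The one call was thus at the threshold. It ended without DMSO replicate 1 (0.26, adjusted p = 0.598), STM2457 replicate 1 (0.181) or STM2457 replicate 2 (0.202), with other size factors (0.053) and on the ERCC scale (0.41, adjusted p = 0.0999).

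PAICS had 344 and 278 CPM in DMSO and 371 and 364 CPM in STM2457 in NGP at 6 days, without overlap, a change of 0.24 ± 0.074 (edgeR adjusted p = 0.025). DMSO replicate 2 was the lowest of the 4 libraries. Without it the change was 0.098 (adjusted p = 0.714), and the call also ended without STM2457 replicate 1 (0.171) or 2 (0.102), in DESeq2 (0.168) and on the ERCC scale (0.20, adjusted p = 0.148). PAICS was not called in the other 3 comparisons.

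CAD changed by -0.17, 0.05, -0.22 and 0.02 and ATIC by -0.12, -0.24, -0.20 and -0.11 in the same order, with no call. PPAT, GART and DHODH were not called in any comparison. PPAT had 123 and 109 CPM in DMSO and 121 and 105 CPM in STM2457 in Kelly at 3 days, and 100 and 97.8 against 93.1 and 89.5 CPM in NGP. MYCN itself changed at 0 h by -0.10, 0.14, -0.25 and -0.08 and was called in NGP at 3 days (edgeR adjusted p = 0.0022). Of 9 neuroblastoma markers, TH, DBH and HAND2 were called lower in Kelly at 3 days. At 6 days there TH, DBH, CHGA, ISL1, GATA3 and HAND2 were called, 3 higher and 3 lower. In NGP at 3 days CHGA and MYCN were called, 1 higher and 1 lower. On the ERCC scale 6, 1, 1 and 3 of these markers were called higher and 2, 3, 0 and 0 lower, in the same order as above. COL1A1 was called lower in NGP under STM2457 at both durations (-0.57 and -0.67). PDGFRB was not called there (0.06 and -0.10, edgeR adjusted p = 0.963 and 0.828). The part of MYCN, of the other neuroblastoma markers or of fibroblast-type RNA in the members' changes was not tested.

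On the ERCC scale more members were called in Kelly, each in the direction of the median of all genes. At 3 days PPAT (0.36), GART (0.35), PAICS (0.24) and UMPS (0.69) were called higher beside the median of 0.38. At 6 days PAICS (-0.24) and ATIC (-0.49) were called lower with IMPDH2 beside the median of -0.21.

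**Figure D3:**
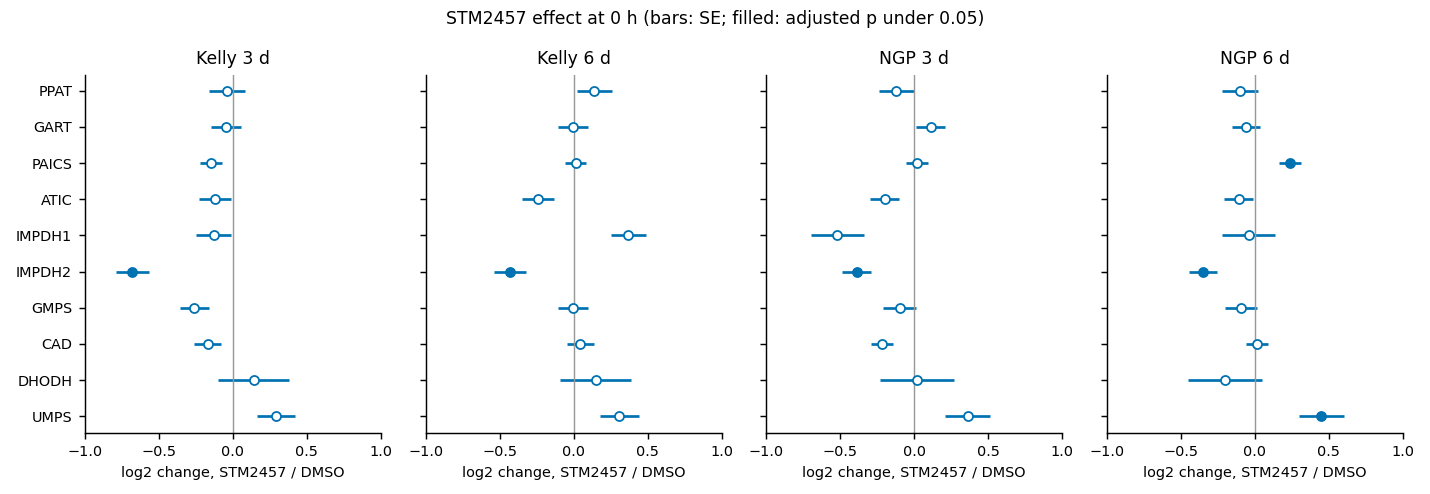
Log2 change of each member, STM2457 minus DMSO at 0 h on the TMM scale, in both lines at 3 and 6 days, with bars of 1 SE and filled symbols for adjusted p under 0.05. IMPDH2 is below 0 and filled in all 4 comparisons; on the ERCC scale it is also below 0 in all 4.

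The effect of STM2457 was compared between durations and between lines. No member was called. This was beside 0.788% of genes between durations in Kelly and 2.80% in NGP, and 0.161% between lines at 3 days and 1.75% at 6 days. At an unadjusted p under 0.05 in edgeR there were 1 and 2 members between durations and 1 and 1 between lines. All genes were not counted at that cutoff. DESeq2 called none of the 10 in these 4 comparisons. The largest difference was that of IMPDH1 in Kelly, where the effect at 6 days minus that at 3 days was 0.50 ± 0.17 (edgeR adjusted p = 0.207). The ERCC scale called 7 members between durations in Kelly, where it called 4009 of 16759 genes, 4002 of them lower. It called 1 member between lines at 6 days, where it called 488 of 17343 genes.

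Actinomycin D was given to follow how fast each mRNA is lost once no new RNA is made. TMM scaling sets the average gene to no change, so a value above 0 means that an mRNA was lost more slowly than most, not that it increased. MYCN, a short-lived mRNA, changed by -3.68 to -2.79 within 6 h in the 8 time courses. Against ERCC the median of all genes at 6 h was -0.34, -1.18, -0.81 and -1.10 in DMSO (Kelly 3 and 6 days, NGP 3 and 6 days) and -0.72, -0.45, -0.64 and -0.67 in STM2457.

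PAICS was retained and UMPS lost, relative to the average gene, in each of the 8 courses at 6 h, and GMPS was called lower in 7. On the ERCC scale PAICS lay below 0 in 7 of the 8 courses, above the median of all genes in each. Its place above that median follows from the TMM values, since the scaling shifts all genes nearly alike. At 6 h in DMSO the members called were 7 in Kelly at 3 days (5 higher, 2 lower; 30.1% of all genes called), 6 in Kelly at 6 days (4 and 2; 26.5%), 6 in NGP at 3 days (4 and 2; 37.4%) and 5 in NGP at 6 days (3 and 2; 36.7%). In STM2457 they were 4 (2 and 2; 26.9%), 3 (1 and 2; 26.4%), 5 (2 and 3; 32.5%) and 5 (3 and 2; 32.1%). The members' median change was 0.25, 0.20, 0.22 and 0.11 in DMSO, and 0.02, -0.07, 0.16 and 0.08 in STM2457.

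PAICS in DMSO in Kelly at 3 days had 456 and 404 CPM at 0 h, 536 and 567 at 3 h and 680 and 653 at 6 h. In NGP at 3 days the values were 396 and 388, then 632 and 524, then 660 and 689 CPM. In STM2457 in NGP at 3 days they were 394 and 400, then 549 and 493, then 579 and 567 CPM. The 6 h libraries were above the 0 h libraries in these courses. The log2 change at 6 h was 0.63, 0.54, 0.78 and 0.66 in DMSO and 0.49, 0.53, 0.53 and 0.52 in STM2457 (SE 0.073 to 0.074). Each was called and held with each library left out. Against ERCC the same changes were 0.20, -0.73, -0.02 and -0.39 in DMSO and -0.35, -0.05, -0.12 and -0.10 in STM2457.

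UMPS in DMSO in Kelly at 3 days had 120 and 112 CPM at 0 h, 87.9 and 80.2 at 3 h and 56.9 and 47.7 at 6 h. In NGP at 6 days it had 50 and 65.5, then 43.8 and 42.4, then 36.5 and 26.4 CPM. In STM2457 in NGP at 6 days it had 78.3 and 78.9, then 59.5 and 50.2, then 61.2 and 56.1 CPM. In all 3 courses the 6 h libraries were below the 0 h libraries, and in the last one they did not lie below the 3 h libraries. The changes at 6 h were -1.15, -0.75, -0.62 and -0.87 in DMSO and -0.94, -0.84, -0.47 and -0.42 in STM2457 (SE 0.14 to 0.15), all called. In STM2457 in NGP the call ended at 3 days without 0 h replicate 1 or 6 h replicate 2 (-0.64 to -0.34 over the 4 fits) and at 6 days without any one of the 4 libraries (-0.48 to -0.36). Against ERCC the UMPS changes ran from -2.02 to -1.05 over the 8 courses.

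GMPS behaved differently at the 2 times. In DMSO in Kelly at 3 days it had 229 and 215 CPM at 0 h, 232 and 230 at 3 h and 162 and 174 at 6 h, and in NGP at 6 days 148 and 124, 124 and 143, and 94.9 and 68.8 CPM. In these courses the 6 h libraries were the lowest, and the 3 h libraries overlapped or lay above those of 0 h. In STM2457 at 3 days the 3 h libraries lay below those of 0 h in both lines. They had 155 and 179 against 184 and 188 CPM in Kelly, and 116 and 117 against 132 and 125 CPM in NGP. No course called GMPS at 3 h (-0.15 to 0.21). At 6 h the change was -0.40, -0.38, -0.10 and -0.73 in DMSO and -0.67, -0.67, -0.49 and -0.70 in STM2457 (SE 0.10 to 0.12). It missed the threshold in DMSO in NGP at 3 days (edgeR adjusted p = 0.546), and the other 7 calls held with each library left out. Against ERCC the GMPS changes ran from -1.78 to -0.84.

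**Figure D4:**
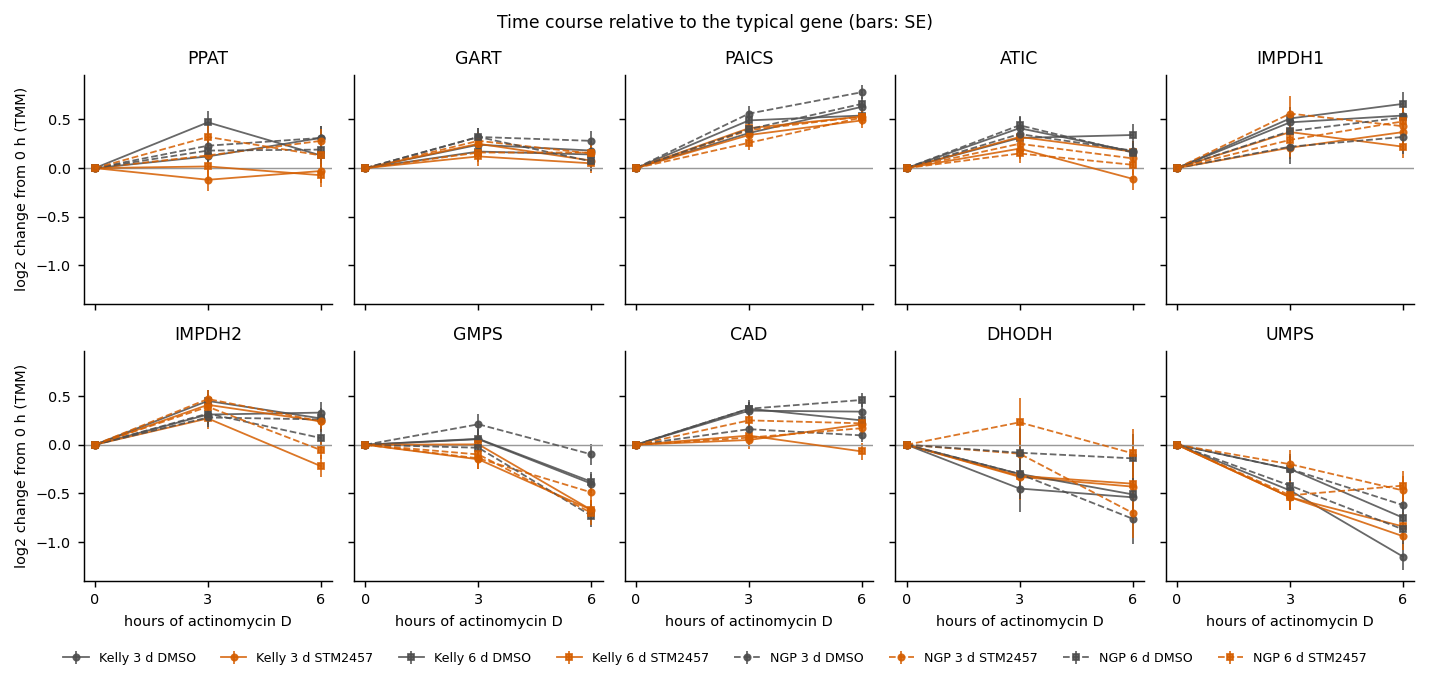
Log2 change of each member from 0 h at 3 and 6 h of actinomycin D on the TMM scale, with bars of 1 SE, for 8 time courses (2 lines, 2 durations, 2 treatments). PAICS rises and UMPS falls relative to the average gene in each course; on the ERCC scale PAICS at 6 h is above 0 in only 1 of the 8.

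For the other members, all directions above 0 that follow are on the TMM scale. IMPDH1 changed by 0.54, 0.66, 0.32 and 0.52 in DMSO at 6 h and CAD by 0.34, 0.25, 0.10 and 0.46, and each was called in all but NGP at 3 days. On the ERCC scale IMPDH1 was at 0.10, -0.61, -0.48 and -0.53 and CAD at -0.09, -1.02, -0.70 and -0.60, so that the sign turned in 3 courses for IMPDH1 and in all 4 for CAD. IMPDH2 changed by 0.33, 0.27, 0.26 and 0.07, with ERCC values of -0.11, -1.01, -0.54 and -0.99. DHODH, the least abundant member, changed by -0.54, -0.51, -0.76 and -0.14, and its SE of 0.24 to 0.26 left a call only in NGP at 3 days, in DMSO and in STM2457 (-0.70). Its libraries there were at 24.8 and 27.3 CPM at 0 h and 9.78 and 21.1 CPM at 6 h in DMSO. The DMSO call ended without 0 h replicate 2 or 6 h replicate 1 (-1.45 to -0.33) and the STM2457 call without either 0 h replicate or 6 h replicate 1 (-1.05 to -0.45).

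Of the 41 member calls at 6 h, 16 ended when some 1 library was left out, and none turned its sign. They were all 3 calls of IMPDH2, both of PPAT and of DHODH, the single calls of GART and ATIC, 3 of 5 for IMPDH1, 2 of 4 for CAD and 2 of 8 for UMPS. PAICS and GMPS lost none.

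**Figure D5:**
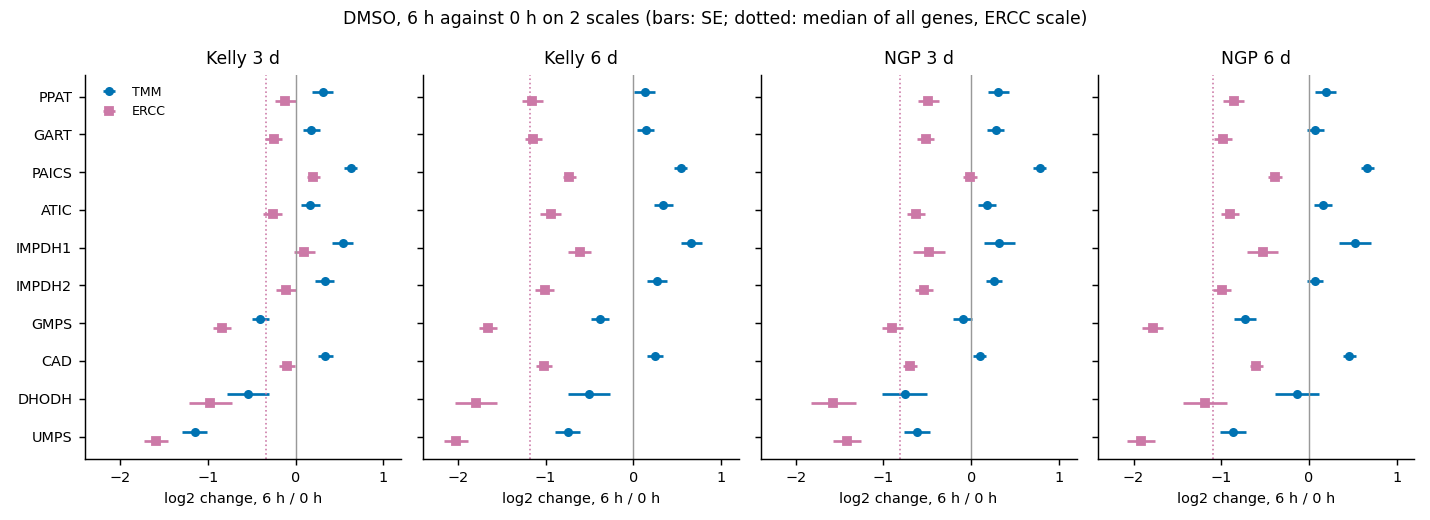
Log2 change of each member from 0 h to 6 h of actinomycin D in DMSO, on the TMM scale and on the ERCC scale, with bars of 1 SE and a dotted line at the median of all genes on the ERCC scale. The change of scale shifts all genes of a course by nearly the same amount, so the members keep much the same order by construction. On the ERCC scale 2 members lie above 0 in Kelly at 3 days and none in the other 3 courses.

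At 3 h PAICS was already called higher in all 8 courses on the TMM scale (0.26 to 0.56). The members called were 6, 6, 4 and 6 in DMSO, beside 19.9%, 18.2%, 24.1% and 21.4% of genes, and 3, 4, 4 and 5 in STM2457, beside 17.8%, 16.8%, 20.5% and 18.8%. IMPDH2 was called higher in 7 courses and UMPS lower in 5 (-0.54 to -0.42). ATIC was called higher in 5 courses (0.31 to 0.44) and at 6 h in only 1. Of the 38 calls at 3 h, 24 ended when some 1 library was left out, among them 1 of the 8 of PAICS, 5 of the 7 of IMPDH2, 4 of the 5 of UMPS and 4 of the 5 of ATIC. These signs too depend on the scale: against ERCC, 40 of the 80 member values at 3 h had the opposite sign and were called on at least 1 of the scales. The comparisons at 3 h and 6 h share their 0 h libraries.

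Whether STM2457 altered the loss was tested as the change over 6 h in STM2457 minus that in DMSO. No member was called in either line at either duration in edgeR, beside 0.221% (Kelly, 3 days), 0.424% (Kelly, 6 days), 0.703% (NGP, 3 days) and 2.54% (NGP, 6 days) of genes. At an unadjusted p under 0.05, a cutoff at which all genes were not counted, there were 1, 4, 2 and 2 members. DESeq2 called 1 in Kelly at 6 days and 0 in the other three. These differences share their 0 h libraries with the STM2457 effect at 0 h. The members' median was -0.14, -0.19, -0.02 and -0.05.

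IMPDH2 in Kelly at 6 days had a difference of -0.48 ± 0.16 (edgeR adjusted p = 0.213). IMPDH1 (-0.44 ± 0.17, adjusted p = 0.387) and CAD (-0.32 ± 0.13, adjusted p = 0.407) also lay below 0 there. GMPS in NGP at 3 days had -0.39 ± 0.16 and PAICS -0.25 ± 0.10. UMPS in NGP at 6 days had 0.45 ± 0.22 (adjusted p = 0.379). Over the 4 comparisons PPAT ran from -0.34 to -0.03, ATIC from -0.28 to -0.07, GART from -0.13 to 0.09 and DHODH from 0.05 to 0.11. The counts for this comparison differed by scale. Against ERCC the median of all genes was -0.37, 0.70, 0.14 and 0.41, and in Kelly 8 members were called lower at 3 days and 7 higher at 6 days. In NGP 0 were called at 3 days and 3 were called higher at 6 days (GART 0.52, GMPS 0.46 and UMPS 0.87). Over all genes that scale called 2375 lower at 3 days and 5013 higher at 6 days in Kelly. In NGP it called 154 and 2564 genes higher.

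Genes around the pathway were read from lists chosen with earlier results of these data known. The list counts at 0 h stand beside 1.68% and 3.97% of all genes called in Kelly and 3.70% and 7.99% in NGP (3 and 6 days). In the rest of de novo purine synthesis (6 genes tested), STM2457 at 0 h changed PFAS, a middle-step enzyme, in Kelly at 6 days (0.33, and 0.08 on the ERCC scale, not called) and PRPS2, which makes the ribose phosphate donor, in NGP at 6 days (0.60), and none at 3 days in edgeR. In the later pyrimidine steps (5 genes) the kinase CMPK1 fell in Kelly at 6 days (-0.54). Of 7 deoxynucleotide genes none was called at 3 days, 5 rose in Kelly at 6 days and 3 in NGP at 6 days. RRM2 and RRM1, the subunits of ribonucleotide reductase, rose by 0.70 and 0.42 in Kelly and by 0.37 and 0.58 in NGP, and the thymidylate synthase gene TYMS rose by 0.44 and 0.66. The list medians were -0.09, 0.42, -0.11 and 0.24, beside 0 to 0.02 for all genes. On the ERCC scale the list had 2, 1, 0 and 3 genes called higher in the same order, and none lower. Of 9 salvage genes, UCK1 (0.85) and TK1 (0.84) rose in Kelly at 6 days and TK1 (0.85) in NGP at 6 days. None of 8 breakdown genes was called in any of the 4. Scaled to ERCC, Kelly at 3 days had 3 genes of the rest of purine synthesis, 2 of the later pyrimidine steps, 2 of salvage and 1 of breakdown called higher, beside the median of all genes of 0.38. On that scale 1 later pyrimidine gene was lower and 1 salvage gene higher in Kelly at 6 days, none of these 4 lists had a call in NGP at 3 days, and 1 gene of the rest of purine synthesis and 1 of salvage were higher in NGP at 6 days.

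One-carbon supply, the serine and folate steps that feed purine synthesis, was called lower for 3, 2, 3 and 6 of 8 genes, and higher for none, but on the ERCC scale lower for 0, 5, 2 and 6 and higher for 2 in Kelly at 3 days. PSAT1 and PSPH of serine synthesis changed by -1.59 and -1.33 in NGP at 6 days, and SHMT2 and MTHFD2 of the mitochondrial folate cycle by -1.24 and -1.09. PHGDH, the first serine enzyme, changed by -0.54, -0.46, -0.37 and -0.91. The list medians were -0.36, -0.27, -0.23 and -1.0. The 6-day values are against controls that had themselves moved since 3 days on the TMM scale. In NGP in DMSO 6 one-carbon genes rose and 1 fell between 3 and 6 days (list median 0.79; PSAT1 1.48, SHMT2 0.99), and in Kelly none was called. Of the deoxynucleotide genes 6 fell in Kelly (RRM2 -1.04) and 4 in NGP (RRM2 -0.73). In that comparison of DMSO groups 8.52% of all genes were called in Kelly and 12.1% in NGP. In the change over 6 h, 6 of the 8 one-carbon genes were called higher in STM2457 than in DMSO in NGP at 6 days. PSAT1 was higher by 1.48 and PSPH by 1.25, and 2.54% of all genes were called there. MTHFD2 was called lower in NGP at 3 days (-0.44, not called on the ERCC scale at -0.30). This difference holds the 0 h libraries with the opposite sign to the effect at 0 h. PSAT1 and PSPH nearly mirror their 0 h changes of -1.59 and -1.33, so the 2 results are not separate. No gene of the other 5 lists was called for that difference in any of the 4 comparisons on the TMM scale in edgeR. With ERCC scaling, given for the rest of purine synthesis, later pyrimidine steps, deoxynucleotides, salvage and breakdown in turn, 3, 2, 5, 0 and 1 genes were called lower at 3 days in Kelly. There 3, 3, 5, 3 and 3 genes were called higher at 6 days. None was called in NGP at 3 days, and 1, 2, 2, 2 and 2 were higher in NGP at 6 days. One-carbon supply had 7 genes called higher at 6 days in each line, and 4 called lower at 3 days in Kelly.

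Over the transcripts, the members differ in their 3′ ends. In the MANE Select transcripts of GENCODE 44, the 3′ UTR was 6328 bases in GMPS, 5189 in UMPS, 5040 in PAICS and 3460 in DHODH, against a median of 1064 over 18730 genes. It was 58 bases in IMPDH2, 109 in ATIC, 191 in GART and 425 in CAD. GMPS, UMPS and DHODH, with long 3′ UTRs, lay below the average gene after 6 h of actinomycin D, and PAICS, with one as long, lay above it. GGACT, a sequence in which m6A is commonly found, was counted on the transcript strand. IMPDH2 held 2.42 per kilobase, more than 95.3% of transcripts and the highest among the members. This came from 4 matches in 1651 bases, where the median transcript has 2969 bases. DHODH held 1.93 (9 matches) and PAICS 1.73 (11 matches), and the median was 0.923. By number of matches PAICS was the highest member. Methylation was not measured here.

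As a description, the genes whose group means ran most like a member's were found among 9377 genes over 24 groups, after removing each line's mean. These groups share the times of actinomycin D and the TMM scaling. For PAICS they were YWHAQ, PARP1 and MAPRE1 (Pearson r = 0.98 each), and for UMPS CHD8 (0.94), SLC10A4 and BCL9L (both 0.93). For IMPDH2 they were NOP53 and RPL23 (both 0.91) and RPL5 (0.90), and for GMPS CPSF3, UTP18 and MAP7D1 (0.93 each). Among the members, IMPDH1 ran most like PAICS (0.82) and IMPDH2 like CAD (0.80). CAD and UMPS, which act in the same pathway, ran opposite (-0.75), as did PAICS and DHODH (-0.77).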

How the data were processed

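The members and the gene lists were chosen with earlier results of these data known. The deposited values were raw fragment counts per gene name for 48 libraries, per the file headers made by the authors with featureCounts 1.5.3 on exons of GENCODE 33 protein-coding genes and 92 ERCC sequences. The headers give no strand, multi-mapping or overlap option. FastQC 0.11.5, Trimmomatic 0.36, HISAT2 2.1.0, Subread 1.5.3 and GRCh38 are named in the submitters' processing notes. The step at which ERCC RNA was added is not given in the sources used here. The reference used for transcripts is GENCODE 44 of the same build, and 18 gene names lie on 2 chromosomes in the files.

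Counts were analysed with edgeR 4.0.16 in R 4.3.3 (quasi-likelihood test, trended dispersion, TMM scaling, genes kept by filterByExpr with a minimum count of 10 and a total of 15). Each line was fitted with its 24 libraries in 12 groups (16759 genes in Kelly, 14661 in NGP), and contrasts between lines with all 48 (17343 genes). ERCC rows were left out of library sizes and tests. Benjamini-Hochberg adjustment ran over all genes tested, with a threshold of 0.05. SEs were obtained from each log2 change and its F statistic. All 10 members were tested in each comparison, and members not named in one are covered by its counts. Of each list, up to 4 genes called at 0 h or in the difference of loss were eligible by smallest adjusted p, and for 4 members the 3 genes of highest r.

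Alternatives were DESeq2 1.42.0, DESeq2-type size factors, library size only, ERCC scaling, no low-count filter, no dispersion trend, libraries of the same duration only, a replicate block and each library left out. Fits with a library left out kept the genes and dispersion trend of the full fit, and the lone library of a group is assumed to vary like the other groups. ERCC values of members are also given relative to the median of all genes. The edgeR steps were tested on simulated data. Alternatives for the 3 h comparison, for 6 against 3 days in DMSO and for the transcript length were chosen after seeing the data.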

Additional observations from a re-analysis of the deposited data

How the results depend on the processing

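Under the alternatives that keep a scale of all genes, no called member change turned its sign. Calls of single members were the same in 304 of 320 values with DESeq2 and 315 with other size factors, 283 with library size only (30 lost), 320 without a dispersion trend and 316 without the filter. They were the same in 272 of 280 with libraries of the same duration only. Values called in neither fit count as the same in these numbers. Fits with a library left out leave 1 library in a group, and many calls ended in them, as given with each result above. ERCC scaling shifts all genes, so members were read there relative to the median of all genes. Subtracting that median takes out nearly all of the shift, so close agreement follows from the reading and does not test the scale. A value so read moved by more than its SE in 10 of 320 and turned in none that was called. On the unshifted ERCC scale the sign turned in 108 of 320 values, counting those called on at least 1 scale (40 of 80 at 3 h and 46 of 80 at 6 h of actinomycin D), and in 22 called on both. A sign that turned while uncalled in both fits was not counted.

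On the unshifted ERCC scale the number of members called at 0 h was 4 and 3 in Kelly and 0 and 1 in NGP (3 and 6 days). For the difference of loss it was 8 and 7 in Kelly and 3 in NGP at 6 days. It was 7 between durations in Kelly (4009 of 16759 genes called) and 1 between lines at 6 days (488 of 17343). For 6 against 3 days in DMSO it was 4 in Kelly (2820 of 16759 genes called) and 1 in NGP. At 6 h of actinomycin D the members called were 10 in DMSO in both lines at 6 days, 10 and 9 in STM2457 in Kelly, and 8 and 8 in NGP. In DMSO at 6 days that scale called 10389 of 16759 genes in Kelly (10379 lower) and 9876 of 14661 in NGP (9830 lower). In STM2457 in Kelly at 3 days it called 8387 genes (8312 lower). At 3 h the members called were 9 and 1 in STM2457 in Kelly, 7 and 2 in STM2457 in NGP, and 2 in DMSO in NGP at 6 days. At 3 h in STM2457 at 3 days that scale called 6314 genes in Kelly (6243 lower) and 6430 in NGP (6411 lower). In DMSO in NGP at 6 days it called 4892 (4851 lower). Courses not named here had counts that moved relatively less. Over all genes, ERCC scaling raised the genes called at 0 h in Kelly from 282 (97 higher) to 3727 (3694 higher) at 3 days and from 665 (453 higher) to 1170 (99 higher) at 6 days. For the difference of loss it gave 2418 for 37, 5033 for 71, 158 for 103 and 2592 for 372, where DESeq2 gave 67, 146, 165 and 562. For the effect between lines at 3 days, 28 genes became 644 (ERCC), 98 (no filter), 57 (DESeq2) and 51 (replicate block).

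With library size only, members called at 3 h were 3 (DMSO, Kelly 3 days), 2 (STM2457, Kelly 6 days), and 2, 2 and 2 in NGP (DMSO and STM2457 at 3 days, STM2457 at 6 days), and at 6 h 3 (STM2457, NGP 6 days). DESeq2 gave 2 at 0 h in Kelly at 3 days and 1 for the difference of loss in Kelly at 6 days. No filter gave 2 at 0 h in Kelly at 6 days, and libraries of the same duration only gave 1 in NGP at 6 days.

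Replicate numbers gave little sign of pairing the samples. Over 66 pairs of groups in a line, deviations of same-numbered libraries correlated between -0.046 and 0.049 in Kelly and -0.034 and 0.11 in NGP. Noise of single libraries lowers such correlations, so they cannot exclude pairing. With the replicate block 2 members were called at 0 h in Kelly at 6 days, and 315 of 320 member calls were the same.

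With each library left out, members called ranged from 0 to 1 at 0 h in Kelly at 6 days and NGP at 3 days, and from 0 to 2 in NGP at 6 days. For the difference of loss at 6 days (either line) and between durations in NGP they ranged from 0 to 1, and from 1 to 2 for 6 against 3 days in DMSO in either line. At 3 h in DMSO the ranges were 2 to 5 (Kelly 3 days), 1 to 4 (NGP 3 days) and 3 to 5 (NGP 6 days), and in STM2457 2 to 4 (Kelly 6 days) and 2 to 3 (NGP 6 days). At 6 h they were 3 to 4 in NGP at 3 days in either treatment and 2 to 4 in STM2457 in NGP at 6 days. Depth limits DHODH, with as few as 169 fragments in a library.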
